A study of Arabidopsis thaliana with 30 samples.

Results

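The chloroplast and mitochondrial genomes of Arabidopsis thaliana were represented by 279 of the 33602 loci in the count tables, 133 with an ATCG number (chloroplast) and 146 with an ATMG number (mitochondrion). A locus was kept when it had at least 10 counts in at least 3 of the 15 libraries, which left 84 chloroplast and 40 mitochondrial loci. The kept loci held 99.95% of all chloroplast counts and 99.94% of all mitochondrial counts. RNA was sequenced from inflorescences whose SHP2 promoter drove the transcription factor GAL4, which in turn drove a triple Ypet, a yellow fluorescent protein (YFP). All 4 groups shared one genotype, pSHP2-GAL4 with pUAS-3xYpet, crossed to pAP1-AP1::GR in ap1 and cal mutants. YFP-POS (n = 3) were protoplasts, cells without walls, sorted for fluorescence, and YFP-NEG (n = 4) were protoplasts sorted for its absence. ALL-SORT (n = 4) were the all-sorted protoplasts, and NO-SORT (n = 4) were whole inflorescences frozen without digestion or sorting. The sorted groups were thus defined by activity of the SHP2 promoter through GAL4, not by dissection. Plant age, the number of plants pooled and any steroid treatment of the AP1 fusion were not given in the sources used here. The labels number biological replicates without saying whether they are separate plantings, so p-values measure the spread between these libraries.

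A plant cell holds its own genome in its plastids and another in its mitochondria, each present in many copies. The plastid genome encodes photosystem, ribosome and RNA polymerase subunits and is transcribed by that plastid-encoded polymerase, which needs nuclear-encoded sigma factors, and by a phage-type polymerase from the nucleus. Neighbouring plastid genes are often transcribed together as operons. The mitochondrial genome encodes subunits of the respiratory chain and of ATP synthase, cytochrome c maturation factors, some ribosomal proteins and RNAs, and it is transcribed by phage-type polymerases encoded in the nucleus. In both organelles much of the control of RNA level lies in RNA processing and decay. In bulk samples a lower share of cells of a type and less organelle RNA per cell cannot be told apart.

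The files give locus numbers without gene names, and the reference annotation carries the organelle genes under other identifiers. Notes on related nuclear genes in the RefSeq annotation describe 6 chloroplast and 25 mitochondrial loci, of which 5 and 6 were kept. Those 11 kept loci are named below as the notes name them, and all other loci are given by number. Locus lengths were not known, so CPM and ranks of different loci give their part of the counts and not expression per length.

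Depth was alike in the groups. Total counts ran from 13969774 to 19011084 in YFP-POS, from 13422821 to 15774591 in YFP-NEG, from 12644721 to 21027032 in ALL-SORT and from 14941768 to 16692127 in NO-SORT. The 5 genes listed as markers of the medial gynoecium were all called higher in YFP-POS than in YFP-NEG. Their summed level was 579 CPM (counts scaled to the library size after TMM correction) against 24.8 CPM. SHP2, whose promoter defined the sort, is 1 of the 5. Of 4 tested markers of the tapetum and male organs, 3 were called lower in YFP-POS. The listed male markers summed to 19.2 CPM in YFP-POS and 34.9 CPM in YFP-NEG. Most of the YFP-POS sum was TPD1, which was not called, at 17.4 ± 3.14 CPM against 15.5 ± 0.755 CPM (log2 fold change 0.14, SE 0.16). Among all loci, 24.4% were called in each direction. ALL-SORT replicate 4 and NO-SORT replicate 1 were the closest of all 105 pairs of libraries although they belong to different groups. Their median absolute log2 difference was 0.123 over chloroplast loci, 0.118 over mitochondrial loci and 0.0880 over nuclear loci, against 0.260, 0.196 and 0.124 for the next closest pair of each kind. Shares, counts of called loci and the named loci of ALL-SORT against NO-SORT are therefore given with and without these 2 libraries.

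Chloroplast loci held between 0.411% and 0.738% of the counts of a library. The share was 0.411%, 0.488% and 0.621% in the YFP-POS libraries, and 0.474%, 0.738%, 0.675% and 0.600% in the YFP-NEG libraries. It was 0.514%, 0.576%, 0.557% and 0.482% in ALL-SORT, and 0.505%, 0.611%, 0.640% and 0.501% in NO-SORT. The ranges of all 4 groups overlapped. YFP-POS averaged 0.507 ± 0.106% and YFP-NEG 0.622 ± 0.113% (SD, n = 3 and 4), a difference of -0.115 percentage points (p = 0.286, exact 2-sided permutation test, which cannot go below 0.0571 at these group sizes). ALL-SORT averaged 0.533 ± 0.0425% and NO-SORT 0.564 ± 0.0718% (n = 4 each, difference -0.0317 points, exact permutation p = 0.457, smallest possible 0.0286). Without ALL-SORT replicate 4 and NO-SORT replicate 1 the difference was -0.0348 points (exact permutation p = 0.5). In each of the 3 same-numbered pairs YFP-POS had the lower chloroplast share, by 0.122 points on average (exact sign-flip test p = 0.25, the smallest that 3 pairs allow). Exact p-values for YFP-NEG and for YFP-POS against NO-SORT were 0.457 and 0.343.

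Mitochondrial counts lay almost wholly in 2 loci. ATMG00020 and ATMG01390 together took from 92.1% to 97.9% of a library's mitochondrial counts, and the share of all mitochondrial loci followed them. That share was 0.968%, 0.800% and 0.520% of all counts in YFP-POS, and 0.694%, 1.1%, 0.609% and 0.693% in YFP-NEG. In ALL-SORT it was 0.660%, 0.614%, 1.03% and 0.510%, and in NO-SORT 0.414%, 0.588%, 0.560% and 0.495%. YFP-POS and YFP-NEG overlapped over most of their ranges, at means of 0.763 ± 0.226% and 0.773 ± 0.219% (exact 2-sided permutation p = 0.971). Each YFP-NEG library lay above each NO-SORT library, whose mean was 0.514 ± 0.0774% (difference 0.259 points, exact permutation p = 0.0286, the smallest that 4 against 4 allows). The exact p-value was 0.171 for YFP-POS against NO-SORT and 0.114 for ALL-SORT against NO-SORT. For the last comparison the difference was 0.189 points. Without ALL-SORT replicate 4 and NO-SORT replicate 1 it was 0.220 points (exact permutation p = 0.1, the smallest that 3 against 3 allows). Each remaining ALL-SORT library then lay above each remaining NO-SORT library. Between same-numbered pairs, the share was higher in YFP-POS in 1 and lower in 2 (exact sign-flip test p = 0.75).

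Without ATMG00020 and ATMG01390 the order of the groups was another one. The other 144 mitochondrial loci held 0.0367%, 0.0423% and 0.0412% of all counts in the YFP-POS libraries, against 0.0184%, 0.0266%, 0.0186% and 0.0146% in the YFP-NEG libraries. Each of the 3 YFP-POS values exceeded each of the 4 YFP-NEG values, and the means, 0.0401 ± 0.00294% and 0.0196 ± 0.00505%, differed 2.05-fold. The exact permutation p was 0.0571, the smallest that 3 against 4 can give. Within same-numbered pairs YFP-POS was higher in 3 of 3, at the smallest exact sign-flip p of 0.25. ALL-SORT held 0.0221%, 0.0181%, 0.0273% and 0.0239%, and NO-SORT held 0.0247%, 0.0292%, 0.0254% and 0.0273% of counts at these loci. Both lay between the 2 fluorescence groups on average, at 0.0228 ± 0.00383% and 0.0267 ± 0.00202%, and the ALL-SORT and NO-SORT ranges overlapped (exact permutation p = 0.114, and 0.2 without ALL-SORT replicate 4 and NO-SORT replicate 1). Leaving out these 2 loci was chosen after the data were seen. Set against them, chloroplast counts were 12.6 ± 2.15 times the counts of the other mitochondrial loci in YFP-POS, 32.7 ± 7.20 times in YFP-NEG, 24.0 ± 5.49 times in ALL-SORT and 21.2 ± 2.88 times in NO-SORT.

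**Figure D1:**
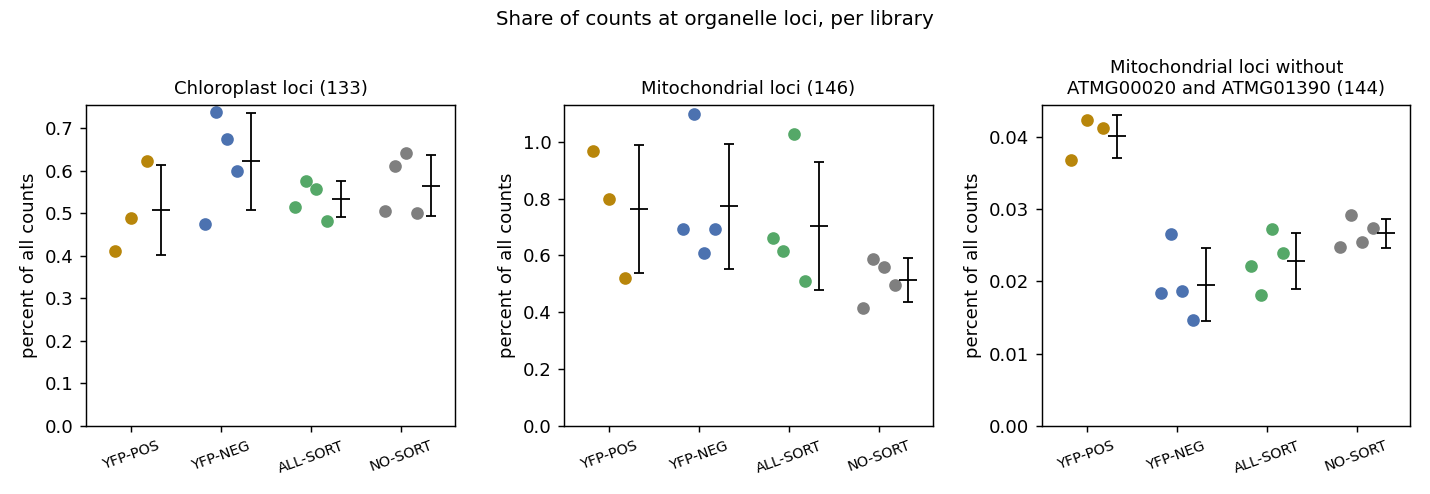
Percent of all counts at chloroplast loci (left), at mitochondrial loci (centre) and at mitochondrial loci without ATMG00020 and ATMG01390 (right) for each of the 15 libraries by group. Points are libraries and the bars give the mean and SD. In the right panel the 3 YFP-POS libraries, 0.0367% to 0.0423%, lie above the 4 YFP-NEG libraries, 0.0146% to 0.0266%.

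Counts were spread more evenly over the chloroplast genome. The kept chloroplast loci had a median level of 19.6 CPM and ran from 0.439 to 726 CPM over the 15 libraries, and 15 of the 84 were over 100 CPM. The kept mitochondrial loci had a median of 2.16 CPM and a maximum of 4929 CPM, and 9 of the 40 were under 1 CPM. The 6 most abundant chloroplast loci, ATCG00480, ATCG00280, ATCG00270, ATCG01130, ATCG00470 and ATCG00340, held 35.4% to 51.1% of a library's chloroplast counts, and all of YFP-POS, at 47.0% to 51.1%, lay above all of YFP-NEG, at 35.4% to 42.4%. The median SD between replicates on the log2 scale was 0.45, 0.49, 0.39 and 0.35 for chloroplast loci in YFP-POS, YFP-NEG, ALL-SORT and NO-SORT. For mitochondrial loci it was 0.39, 0.43, 0.33 and 0.26 in the same groups.

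Loci that were not kept came close to 0. Of the 133 chloroplast loci, 18 had no count in any library and 18 more had under 15 counts in all. Of the 146 mitochondrial loci, 69 had no count and 19 more had under 15. Just inside the rule, ATCG01000 had 104 counts over the libraries and ATMG00110 had 125. Just outside it, ATCG00200 had 85 counts and ATMG01190, which a RefSeq note describes as ATP synthase subunit 1, had 100. Loci with few or no counts lay in runs of successive numbers. The 10 chloroplast loci from ATCG00830 to ATCG00910 had 21 counts between them, and the 12 mitochondrial loci from ATMG00840 to ATMG00950 had 9.

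Most mitochondrial loci had a larger part of the counts in YFP-POS than in YFP-NEG. Of 37 mitochondrial loci tested, 23 were called higher in YFP-POS and 0 lower at an adjusted p under 0.05 (edgeR quasi-likelihood test, Benjamini-Hochberg adjustment over all loci). DESeq2 called 24 higher and 0 lower, and 24 had an unadjusted p under 0.05 in edgeR. That is 62.2% of the mitochondrial loci, where 48.8% of all 18830 loci were called, 24.4% higher and 24.4% lower. The median log2 fold change over the 37 was 1.33, against -0.01 over all loci. Every YFP-POS library lay above every YFP-NEG library at 22 of the 37, against 26.7% of all loci. The calls and the median include 3 loci called higher, ATMG00570, ATMG00630 and ATMG00665, that the low-count filter left out of YFP-NEG against NO-SORT. These loci averaged 0.357, 0.275 and 0.353 CPM in YFP-NEG, so their fold changes rest on few counts there. How many loci passed the filter through YFP-POS alone was not counted. Of 82 chloroplast loci tested, 24 were called lower and 3 higher, 32.9% in all, with a median of -0.41. With 17 of the 82, every YFP-POS library lay below every YFP-NEG library, against 24.5% of all loci. In this fit, which was not blocked on replicate number, the chloroplast calls were thus not more frequent than those of all loci. With each genome scaled to its own counts they were 15 higher and 18 lower.

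The 6 kept mitochondrial loci with a description split between these patterns. ATMG01320, described as NADH dehydrogenase 2B, a subunit of respiratory complex I, had 2.94, 4.08 and 4.95 CPM in YFP-POS, against 1.49, 1.18, 0.818 and 0.296 CPM in YFP-NEG. It was called higher in YFP-POS (log2 fold change 2.03, SE 0.46, adjusted p = 0.00337, edgeR). ATMG01080, described as F0-ATPase subunit 9, which forms the proton-carrying ring of ATP synthase, had 4.30, 2.48 and 3.28 CPM in YFP-POS and 1.29, 1.92, 0.818 and 1.26 CPM in YFP-NEG (log2 fold change 1.33, SE 0.40, adjusted p = 0.0150, edgeR). The libraries of the 2 groups did not overlap at either locus. ATMG00560, described as a nucleic acid-binding protein with an OB fold, was called higher as well, at 7.48 ± 0.975 CPM against 2.78 ± 0.912 CPM (log2 fold change 1.41, SE 0.31, adjusted p = 0.00263, edgeR). ATMG00730, cytochrome c oxidase subunit 3 of the last respiratory complex, had 4.87 ± 2.60 CPM in YFP-POS and 4.19 ± 1.44 CPM in YFP-NEG and was not called (log2 fold change 0.20, SE 0.39, adjusted p = 0.694, edgeR). ATMG00410, ATPase subunit 6-1, and ATMG00180, a cytochrome c biogenesis protein, were not called either, at log2 fold changes of 0.67 (SE 0.48) and -0.61 (SE 0.62). Their YFP-NEG libraries ran from 0.440 to 1.62 CPM, and the libraries overlapped between the groups. RefSeq notes tie each of the 6 loci to a locus in chromosome 2, as described below.

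Among mitochondrial loci known by number, ATMG00090 was the third most abundant. It had 116, 143 and 168 CPM in YFP-POS, against 45.9, 58.2, 56.5 and 37.0 CPM in YFP-NEG (log2 fold change 1.5, SE 0.17, adjusted p = 3.23e-05, edgeR). ATMG00060, which rose most among called loci that averaged 5 CPM or more in one group, had 17.0, 21.1 and 24.6 CPM against 4.78, 9.14, 4.28 and 4.22 CPM (log2 fold change 1.87, SE 0.27, adjusted p = 0.000143, edgeR). The groups stood apart at both loci. The 23 called loci ran from 0.97 to 2.81 on the log2 scale. The 2 loci that hold most mitochondrial counts were not among them. ATMG00020 had 6813, 6280 and 3882 CPM in YFP-POS and 4472, 7738, 4289 and 4845 CPM in YFP-NEG (log2 fold change 0.06, SE 0.25, adjusted p = 0.864, edgeR), and ATMG01390 stood at -0.11 on the log2 scale (SE 0.29, adjusted p = 0.789, edgeR). The signs of both turned with single libraries left out, and their libraries overlapped widely. ATMG01360, the fourth most abundant, was not called (log2 fold change -0.13, SE 0.34).

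Chloroplast loci differed among themselves in this comparison. ATCG00430, which its note calls photosystem II reaction center protein G, had 5.98, 10.9 and 12.9 CPM in YFP-POS, against 14.0, 23.9, 21.0 and 18.7 CPM in YFP-NEG, and was called lower (log2 fold change -1.0, SE 0.26, adjusted p = 0.00661, edgeR). The groups did not overlap there. The other 4 chloroplast loci with a description were not called in this unblocked fit, and their results under the replicate block are not given here. ATCG00670, the plastid-encoded ClpP subunit of the Clp protease, had 113 ± 16.3 CPM in YFP-POS and 135 ± 40.2 CPM in YFP-NEG (log2 fold change -0.28, SE 0.22). ATCG00660 and ATCG00750, ribosomal proteins L20 and S11, had log2 fold changes of 0.12 (SE 0.25) and -0.60 (SE 0.26), and ATCG00530, a CemA-like proton extrusion protein, -0.20 (SE 0.20). ATCG00490 fell most among loci that averaged 5 CPM or more in one group, to 227, 236 and 114 CPM in YFP-POS against 509, 776, 269 and 374 CPM in YFP-NEG (log2 fold change -1.35, SE 0.34, adjusted p = 0.00590, edgeR), followed by ATCG00020 at -1.31 (SE 0.31). In the other direction ATCG00340 had 239, 320 and 520 CPM in YFP-POS and 124, 224, 150 and 132 CPM in YFP-NEG (log2 fold change 1.16, SE 0.25, adjusted p = 0.00252, edgeR), and its neighbour by number, ATCG00350, rose by 1.08 (SE 0.27, adjusted p = 0.00536, edgeR). All YFP-POS libraries were above all YFP-NEG libraries at ATCG00340, while 1 pair overlapped at ATCG00350. The third locus called higher, ATCG00690, rose by 0.79 on the log2 scale (SE 0.30, edgeR adjusted p = 0.0437) and lost its call under the replicate block and when any of 6 of the 7 libraries was left out.

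**Figure D2:**
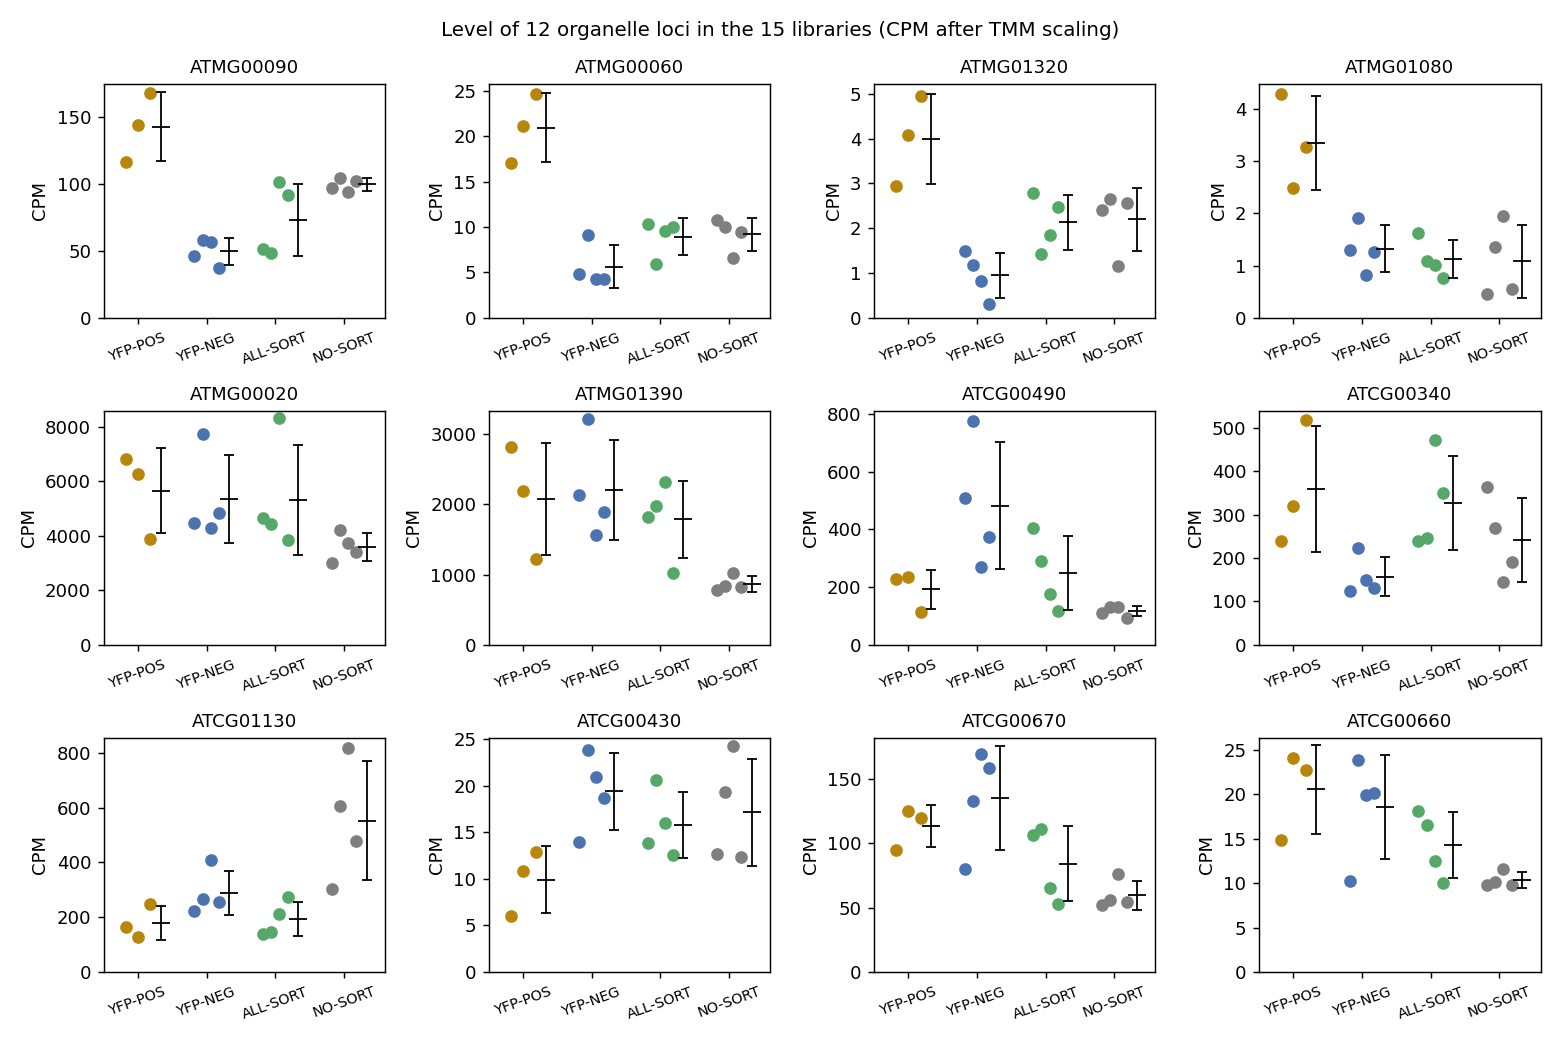
CPM of 12 organelle loci in the 15 libraries, grouped as YFP-POS, YFP-NEG, ALL-SORT and NO-SORT, with a separate linear axis from 0 for each locus. Points are libraries and the bars give the mean and SD. ATMG00090, ATMG00060, ATMG01320 and ATMG01080 are higher in each YFP-POS library than in each YFP-NEG library, while the YFP-POS and YFP-NEG libraries overlap at ATMG00020 and ATMG01390.

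Loci with neighbouring numbers tended to move alike in the chloroplast genome. Over 66 pairs of successive loci that were both tested, log2 fold changes of YFP-POS against YFP-NEG had a Pearson's r of 0.73, 56 pairs shared their sign, and the median absolute difference within a pair was 0.22. The 9 tested loci from ATCG00020 to ATCG00100 were all negative and 6 of them were called lower, and the 9 from ATCG00270 to ATCG00380 were all positive and 2 of them were called higher. All 6 tested loci from ATCG00770 to ATCG00820 were called lower, by 0.73 to 1.06 on the log2 scale. For 20 such pairs in the mitochondrial genome r was 0.32. These values are over loci measured in the same libraries, and reads that lie across neighbours can be shared between them, so they are a description. The r over chloroplast neighbours was 0.35 for ALL-SORT against NO-SORT (65 pairs), 0.61 for YFP-NEG against NO-SORT (67 pairs) and 0.42 for YFP-POS against NO-SORT (65 pairs).

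**Figure D3:**
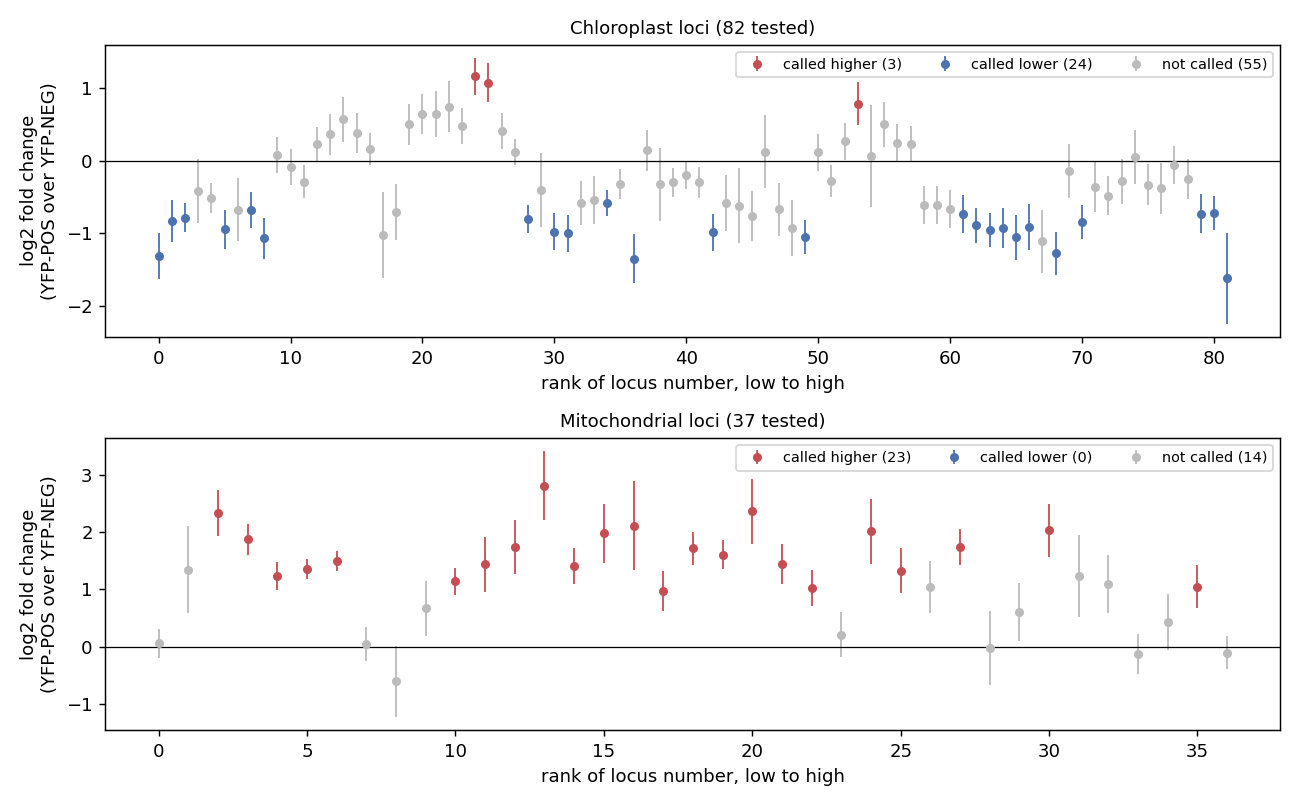
log2 fold change of YFP-POS over YFP-NEG for 82 chloroplast loci (top) and 37 mitochondrial loci (bottom), ordered by locus number. Points are fitted values, bars are SE, and colour gives the edgeR call at an adjusted p under 0.05. Chloroplast loci form stretches above and below 0, and 33 of 37 mitochondrial loci lie above 0.

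Same-numbered YFP-POS and YFP-NEG libraries deviated together, and a fit blocked on replicate number called 43 chloroplast loci, 8 higher and 35 lower, where the unblocked fit called 27. The block changed the mitochondrial count to 24, all higher. The share of all loci called under the block was not counted, so these counts cannot be set against it. Scaling each genome to its own counts asks how loci differ relative to the total of that genome. ATMG00020 and ATMG01390 make up 92.1% to 97.9% of the mitochondrial total. For the mitochondrion the scaling is therefore mainly to these loci. Own-genome scaling gave 15 chloroplast loci higher and 18 lower, with a median log2 fold change of -0.19, and 23 mitochondrial loci higher and 0 lower. It takes out a shift shared by all loci of a genome. It therefore cannot show the direction of the chloroplast genome as a group.

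ALL-SORT against NO-SORT sets sorted protoplasts beside the intact inflorescence. Effects of digestion and sorting on RNA levels and a different mix of recovered cells cannot be told apart in this comparison. Of 82 chloroplast loci tested, 6 were called higher and 6 lower (14.6%), and 1 of 36 mitochondrial loci was called higher (2.78%), where 13.4% of all 18733 loci were called, 9.84% higher and 3.6% lower (edgeR). The medians were 0.15 for chloroplast loci and 0.16 for mitochondrial loci, against -0.04 for all loci. Every ALL-SORT library lay above every NO-SORT library at 7 of the 82 chloroplast loci and below at 8, where 17.1% and 6.03% of all loci did so, and at 3 and 0 of the 36 mitochondrial loci. The split of chloroplast calls was 2 higher and 12 lower with library totals as the scaling. ATCG01130, among the 4 most abundant chloroplast loci, had 139, 147, 213 and 273 CPM in ALL-SORT, against 303, 606, 819 and 478 CPM in NO-SORT, and was called lower (log2 fold change -1.58, SE 0.31, adjusted p = 0.00993, edgeR). No ALL-SORT library reached the lowest NO-SORT library. The others called lower at 5 CPM or more in one group lay between -0.83 (ATCG00160, SE 0.19, adjusted p = 0.0170, edgeR) and -0.55 (ATCG00790, SE 0.14). Among loci called higher, ATCG00280 had 520, 752, 653 and 412 CPM in ALL-SORT and 387, 310, 197 and 252 CPM in NO-SORT (log2 fold change 0.98, SE 0.23, adjusted p = 0.0214, edgeR). Without the 2 alike libraries ATCG01130, ATCG00160, ATCG00790 and ATCG00280 had log2 fold changes of -2.0, -1.06, -0.68 and 1.27, each called (edgeR). The groups of ATCG00280 did not overlap, although ALL-SORT replicate 4 was the lowest of the first and NO-SORT replicate 1 the highest of the second.

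The mitochondrial locus called higher in ALL-SORT was ATMG01390. It had 1822, 1982, 2313 and 1022 CPM in ALL-SORT, against 775, 838, 1026 and 818 CPM in NO-SORT (log2 fold change 0.99, SE 0.23, adjusted p = 0.0197, edgeR). ALL-SORT replicate 4, at 1022 CPM, lay within the NO-SORT range and the other 3 lay above it. ATMG00020 showed no call (log2 fold change 0.51, SE 0.23, adjusted p = 0.163, edgeR). Without the 2 alike libraries these loci had log2 fold changes of 1.12 and 0.55 (adjusted p = 0.000298 and 0.0940, edgeR). With ALL-SORT replicate 4 and NO-SORT replicate 1 left out, an alternative chosen after the data were seen, 31 chloroplast loci were called, 16 higher and 15 lower, and 4 mitochondrial loci, 3 higher and 1 lower. Leaving out ALL-SORT replicate 4 alone gave 28 chloroplast and 3 mitochondrial calls, and NO-SORT replicate 1 alone 21 and 2. Leaving out any one of the other 6 libraries gave between 2 and 5 chloroplast calls and at most 1 mitochondrial call. Both counts thus depended on single libraries. The share of all loci called in these refits was not counted, so the changes cannot be read as particular to the organelle loci.

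YFP-NEG against NO-SORT sets reporter-negative protoplasts beside the intact inflorescence, and it shares its NO-SORT libraries with the comparison before it and the one after it. Of 83 chloroplast loci tested, 26 were called higher and 9 lower (42.2%), and of 34 mitochondrial loci 5 were called higher and 9 lower (41.2%), where 51.6% of all 18886 loci were called, 25.7% higher and 25.9% lower (edgeR). The libraries of the 2 groups stood apart, with YFP-NEG above at 19 and below at 5 chloroplast loci and above at 5 and below at 8 mitochondrial loci, where 23.9% and 23.4% of all loci did so. With own-genome scaling the splits were 23 higher and 16 lower for the chloroplast and 2 higher and 19 lower for the mitochondrion, and with library totals the mitochondrial split was 4 and 12. For the mitochondrion own-genome scaling is mainly to ATMG00020 and ATMG01390, which were both called higher in YFP-NEG. ATCG00490 averaged 482 ± 219 CPM in YFP-NEG and 116 ± 18 CPM in NO-SORT (log2 fold change 2.05, SE 0.26, adjusted p = 4.06e-05, edgeR). ATCG00670, encoding ClpP, had 79.5, 133, 170 and 159 CPM in YFP-NEG, against 51.7, 56.1, 76.0 and 54.3 CPM in NO-SORT (log2 fold change 1.18, SE 0.21, adjusted p = 0.000454, edgeR). Every YFP-NEG library was above every NO-SORT library at both loci. L20 (ATCG00660) and the CemA-like protein (ATCG00530) were also called higher, by 0.84 (SE 0.21) and 0.77 (SE 0.21).

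Mitochondrial loci went in both directions in YFP-NEG. ATMG00730, cytochrome c oxidase subunit 3, had 4.46, 6.12, 3.21 and 2.96 CPM in YFP-NEG, against 1.76, 1.89, 1.78 and 2.73 CPM in NO-SORT, and was called higher (log2 fold change 1.02, SE 0.29, adjusted p = 0.0108, edgeR). ATMG00020, ATMG01390 and ATMG01360 were called higher too, at log2 fold changes of 0.57 (SE 0.18), 1.34 (SE 0.19) and 1.35 (SE 0.25), and their libraries did not overlap with NO-SORT. ATMG01320, NADH dehydrogenase 2B, was called lower (-1.20, SE 0.43, adjusted p = 0.0344, edgeR), at 0.945 ± 0.511 CPM in YFP-NEG and 2.19 ± 0.704 CPM in NO-SORT. ATMG00090 fell as well, to 49.4 ± 9.92 CPM in YFP-NEG against 99.4 ± 4.70 CPM in NO-SORT (log2 fold change -1.01, SE 0.13, adjusted p = 4.61e-05, edgeR).

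In YFP-POS against NO-SORT the mitochondrial loci were called in one direction. Of 38 tested, 21 were called higher and 0 lower (55.3%), and of 81 chloroplast loci 15 were called higher and 16 lower (38.3%), where 46% of all 18877 loci were called, 22.2% higher and 23.8% lower (edgeR). YFP-POS stood wholly above NO-SORT at 22 mitochondrial and 16 chloroplast loci and wholly below at 0 and 8, where 28.3% and 22.3% of all loci did so. The medians were 0.81 for mitochondrial loci and 0.08 for chloroplast loci, and 0.01 for all loci. With own-genome scaling, which for the mitochondrion is mainly to ATMG00020 and ATMG01390, 4 mitochondrial loci were called higher. With library totals the chloroplast split was 10 higher and 17 lower. Without NO-SORT replicate 4, NO-SORT replicate 3, YFP-POS replicate 2 or NO-SORT replicate 1, the mitochondrial count was 11, 12, 13 and 13, and without YFP-POS replicate 2 the chloroplast count was 19. ATMG00560 had 8.43, 6.48 and 7.54 CPM in YFP-POS, against 2.87, 2.33, 1.55 and 2.84 CPM in NO-SORT (log2 fold change 1.57, SE 0.27, adjusted p = 0.000889, edgeR). ATMG01080 and ATMG00730 were also called higher, at 1.54 (SE 0.50, adjusted p = 0.0260, edgeR) and 1.18 (SE 0.39, adjusted p = 0.0285, edgeR), while ATMG01320 was not called (0.77, SE 0.35, adjusted p = 0.0935, edgeR). ATMG00560 and ATMG01080 stood apart between the groups, and the libraries overlapped at ATMG00730.

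Among chloroplast loci, ClpP (ATCG00670) and L20 (ATCG00660) were called higher in YFP-POS than in NO-SORT, by 0.84 (SE 0.16, adjusted p = 0.00172, edgeR) and 0.90 (SE 0.18, adjusted p = 0.00222, edgeR), and ATCG00430 was called lower (-0.89, SE 0.30, adjusted p = 0.0320, edgeR). ATCG01130 had 163, 127 and 247 CPM in YFP-POS, below each of the NO-SORT libraries (log2 fold change -1.72, SE 0.33, adjusted p = 0.00158, edgeR). The lowest value of any chloroplast locus was that of ATCG00620, singled out after its values were seen, with 0.217, 0 and 0.186 CPM in YFP-POS and 1.17, 1.79, 1.95 and 2.40 CPM in NO-SORT (log2 fold change -3.67, SE 0.66, adjusted p = 0.00105, edgeR). It had 202 counts over all libraries, and its fold change rests on few counts.

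**Figure D4:**
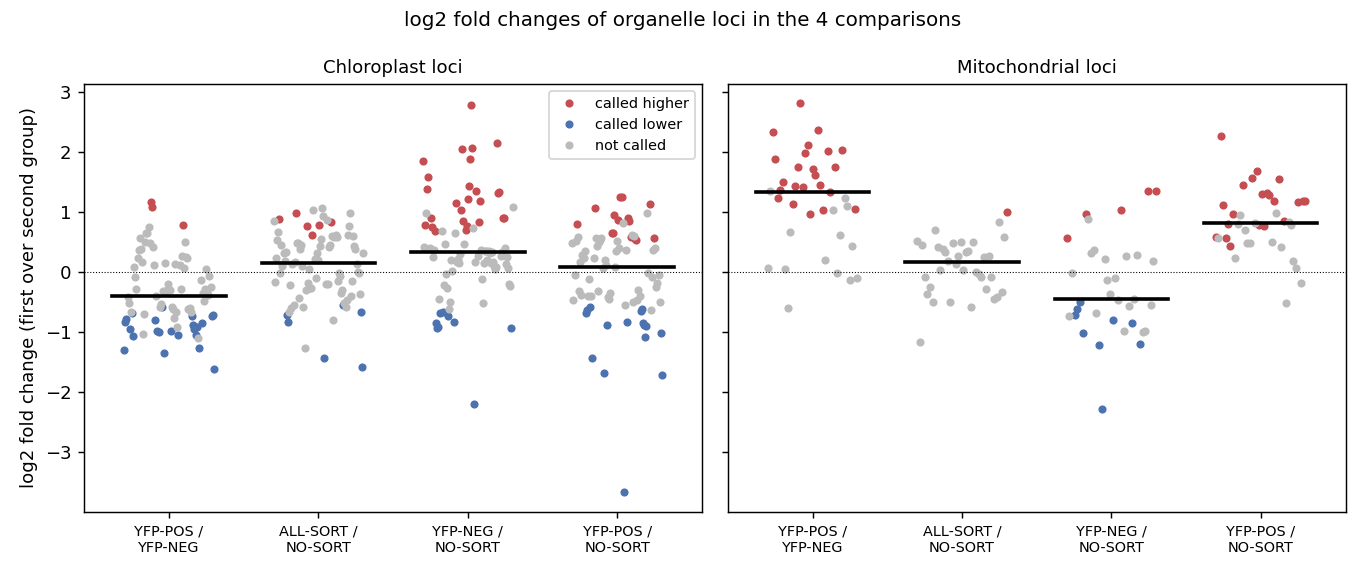
log2 fold changes of tested chloroplast loci (left) and mitochondrial loci (right) in the 4 comparisons, each group named first over the one named second. Points are loci, colour gives the edgeR call at an adjusted p under 0.05, and thick lines are medians. The mitochondrial median is 1.33 for YFP-POS over YFP-NEG, 0.16 for ALL-SORT over NO-SORT, -0.46 for YFP-NEG over NO-SORT and 0.81 for YFP-POS over NO-SORT.

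Part of the mitochondrial genome is also present in the nucleus, as a large insertion in chromosome 2. In the TAIR10.1 sequence of RefSeq, 66.3% of all 125-base windows of the mitochondrial genome, the length of a read here, also occurred in chromosome 2, within chr2:3239038-3509765. By the same count 33.1% of mitochondrial windows occurred once in the whole sequence, against 66.0% of chloroplast windows. Of 33 annotated mitochondrial coding genes, 12 had no window that occurred once, and the RefSeq genes cox3, cob, atp1 and atp9 were among them, while every window of cox1 occurred once. Of 85 annotated chloroplast coding genes 67 had single windows throughout, and the 10 without any, such as rpl2, ycf2 and ndhB, were annotated as 5 genes with a pair of copies each. The submitters' notes name TAIR10, whose mitochondrial sequence was not used here and can differ, and how reads with several matches were counted is not given. What share of counts such reads make up was not tested.

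RefSeq notes tie 54 nuclear loci with AT2G07 numbers to 52 mitochondrial loci. Of those 52, 36 had under 15 counts over all libraries. In 17 of the 54 pairs the nuclear locus had at least 15 counts and the mitochondrial one fewer, in 4 it was the reverse, in 12 both had 15 or more and in 21 neither did. The nuclear loci held 15647 counts in all and the mitochondrial ones 3767. AT2G07727, whose note names apocytochrome b, the membrane subunit of respiratory complex III, had 467 counts in YFP-POS, 222 in YFP-NEG, 492 in ALL-SORT and 496 in NO-SORT, where the matching ATMG00220 had 1 count in all. AT2G07734, noted as ribosomal protein S4, had 488 counts and its partner ATMG00290 none. For these proteins the counts thus stood at the chromosome 2 loci.

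Of 13 chromosome 2 loci tested in YFP-POS against YFP-NEG, 7 were called higher and 0 lower (edgeR, 7 with an unadjusted p under 0.05), where 24.4% of all loci were called in each direction. Their median log2 fold change was 0.82. AT2G07727 was called higher (log2 fold change 1.39, SE 0.27, adjusted p = 0.00119, edgeR), at 10.3 ± 2.69 CPM in YFP-POS and 3.82 ± 1.0 CPM in YFP-NEG. AT2G07708, the most abundant, was called higher by 1.76 (SE 0.26, adjusted p = 0.000173, edgeR), whereas AT2G07698, noted as ATP synthase subunit 1, was not called (-0.09, SE 0.31, adjusted p = 0.844, edgeR). AT2G07671, the partner of ATMG01080, held 507 counts against 380 there. Unlike ATMG01080, it was not called (0.04, SE 0.57, adjusted p = 0.959, edgeR). Of the partners of ATMG00560 and ATMG00730, AT2G07715 was called higher (0.82, SE 0.19) and AT2G07687 was not called (-0.06, SE 0.47). AT2G07689, the partner of ATMG01320, was not tested. In YFP-POS against NO-SORT 5 of 17 were called higher and 0 lower, near the 22.2% higher among all loci, where 23.8% were lower. In YFP-NEG against NO-SORT 4 of 12 were called higher and 4 lower, where 51.6% of all loci were called. In ALL-SORT against NO-SORT edgeR called 0 of 15, where 13.4% of all loci were called, while 2 had an unadjusted p under 0.05 and DESeq2 called 1.

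**Figure D5:**
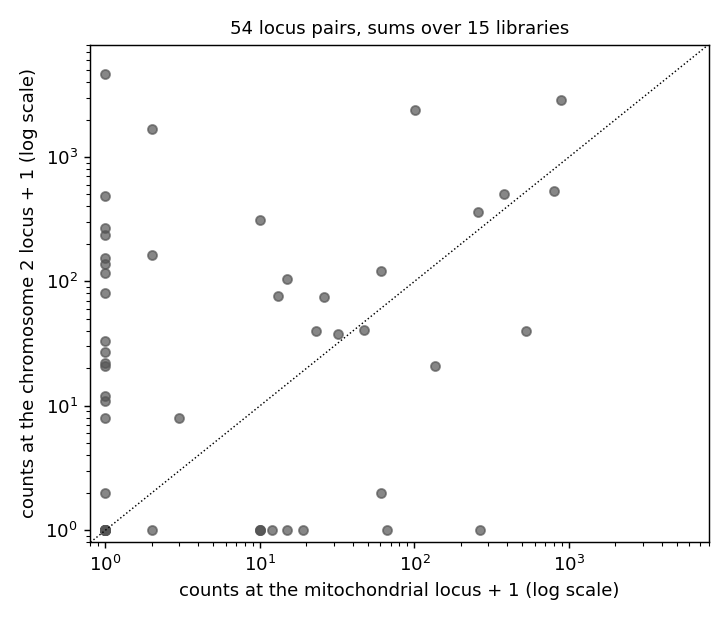
Counts summed over the 15 libraries at 54 chromosome 2 loci (vertical axis) against the mitochondrial locus that their RefSeq note names (horizontal axis), each plus 1 on log scales. Points are pairs and the dotted line marks equal counts. In 17 pairs the chromosome 2 locus has at least 15 counts and the mitochondrial locus fewer.

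Nuclear genes that serve the organelles were read beside these loci, from lists chosen with earlier results of the data known. All 3 genes listed for mitochondrial transcription and RNA turnover were called higher in YFP-POS than in YFP-NEG, where 24.4% of all loci were. MGP3 (AT1G68990), the mitochondrial phage-type RNA polymerase, averaged 42.7 ± 6.66 CPM in YFP-POS and 25.9 ± 2.82 CPM in YFP-NEG (log2 fold change 0.70, SE 0.14, adjusted p = 0.00177, edgeR). AT5G15700, a phage-type polymerase of both organelles, and AT5G14580, a mitochondrial polynucleotide phosphorylase that degrades RNA, had log2 fold changes of 0.63 (SE 0.17) and 1.01 (SE 0.14). Against NO-SORT, 2 of the 3 were called higher in YFP-POS (22.2% of all loci) and 2 of the 3 lower in YFP-NEG (25.9% of all loci). Of 5 genes that respond to mitochondrial stress, 3 were called lower against YFP-NEG in the YFP-POS cells, where 24.4% of all loci were, among them the alternative oxidase AOX1A at 17.8 ± 7.24 CPM in YFP-POS and 27.7 ± 4.01 CPM in YFP-NEG. AOX1A was called higher than in NO-SORT in both, by 0.77 in YFP-POS and 1.5 in YFP-NEG.

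For the plastid, 12 of 20 genes of the transcription machinery were called lower in YFP-POS and 1 higher, against YFP-NEG, with a median log2 fold change of -0.51. Of all loci 24.4% were called in each direction. The sigma factor SIGF (AT2G36990) had 59.6 ± 4.45 CPM in YFP-POS and 92.3 ± 9.99 CPM in YFP-NEG (log2 fold change -0.66, SE 0.13, adjusted p = 0.00113, edgeR), and PTAC14, a protein of the plastid transcription complex, had -1.04 (SE 0.13, adjusted p = 6.44e-05, edgeR). PTAC3 and PDE312 were not called, at -0.04 and -0.35 (SE 0.14 each). Of 18 nuclear photosynthesis genes 15 were called lower and 0 higher, including the antenna gene CAB1 at -0.77 (SE 0.16) and the Calvin cycle gene GAPA at -0.83 (SE 0.16). The Rubisco small subunit RBCS1A missed the threshold at -0.44 (SE 0.17, adjusted p = 0.0541, edgeR). PSBO1 was not called either, at -0.19 (SE 0.16, adjusted p = 0.353, edgeR). Of 3 genes of plastid RNA turnover 1 was called lower, near the share of all loci. Whether these lists bear on the organelle loci was not tested.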

How the data were processed

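RNA was sequenced in 15 libraries over 2 lanes each (30 samples), with strand-marking library preparation and single-end reads of 125 cycles, per the labels' protocols. The authors deposited 2 tables of counts per locus, taken as raw, since the values are whole and their totals differ. The submitters' processing notes name FastQC, TopHat2 2.0.10, HTSeq, edgeR, DESeq2, Cufflinks 2.2.1 and TAIR10 without roles. The strand setting, the treatment of reads with several matches, the joining of lanes and any selection of poly(A) RNA are not given in the sources used here. Plant organelle loci can overlap and occur on both strands, so reads of overlapping or antisense loci may be shared.

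The members and all lists were chosen with earlier results of these data known. Each comparison was fitted on its own libraries with edgeR 4.0.16 (R 4.3.3), filterByExpr, TMM scaling, the quasi-likelihood test and Benjamini-Hochberg adjustment over all loci, and called at 0.05. CPM come from TMM scaling over the 15 libraries, and errors are SD over libraries unless SE is written. Shares were tested with exact 2-sided permutation tests, and within pairs, an addition made after the data were seen, with exact sign-flip tests. On simulated counts with 100 genes changed by 1 and 100 by 2 on the log2 scale among 18618 genes, 82% and 100% were called for YFP-POS against YFP-NEG, with 5.21% of calls unchanged. The values were 73%, 98% and 5% for ALL-SORT (18612 genes), 85%, 100% and 5.61% for YFP-NEG (18755) and 78%, 97% and 9.33% for YFP-POS (18704), each against NO-SORT. The changed genes were drawn only from genes with higher mean counts. These rates therefore do not hold for low-count loci, among them many mitochondrial loci, whose median was 2.16 CPM. Windows were matched on both strands of TAIR10.1.

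Loci named in the text came from a rule: the 6 most abundant of each genome, and up to 5 called loci in each direction with the largest change and at least 5 CPM in the higher group, for YFP-POS against YFP-NEG and ALL-SORT against NO-SORT. Loci with a RefSeq note, and ATCG00620, were added after the data were seen. The rule's functional classes and rRNA loci could not be used, because no table pairs the locus numbers with symbols. From the nuclear lists the 4 most abundant genes at most were named, apart from SHP2 and the chromosome 2 loci. The chromosome 2 loci named were chosen after the data were seen, some of them as partners of named mitochondrial loci.

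Same-numbered libraries were checked for pairing by correlating deviations from group means across loci. The r was 0.346, 0.249 and 0.313 for YFP-POS with YFP-NEG, above the limit of 0.1, so these numbers were taken as pairs. Even so, calls, fold changes and p-values of single loci for YFP-POS against YFP-NEG come from the unblocked fit unless the block is named. A locus not called there may be called under the block. Alternatives were RLE, library-total, nuclear-only and own-genome scaling, no low-count filter, DESeq2 1.42.0, all 15 libraries in one fit, the replicate block, and each library left out. The share of all loci called was counted for the main fits only. Library totals moved the median of all loci to -0.16, -0.12 and -0.14 for ALL-SORT, YFP-NEG and YFP-POS against NO-SORT, from within 0.04 of 0, so calls under that scaling are relative to this shift.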

Additional observations from a re-analysis of the deposited data

Results flagged for a closer look

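Groups of 4 libraries were examined for a single library far from the others, over the shares and the loci of the naming rule (102 groups). In 3 of them a library stood apart. Chance gives 1 in 20 for a single group. The 102 groups share libraries and some measures overlap, so their count cannot be set against that rate. YFP-NEG replicate 2 had 7738 CPM at ATMG00020, where the other YFP-NEG libraries had 4289 to 4845 CPM. The same library had 9.14 CPM at ATMG00060, against 4.22 to 4.78 CPM in the others, which is still below each YFP-POS library. ALL-SORT replicate 2 had 5.88 CPM at ATMG00060, where the other ALL-SORT libraries had 9.59 to 10.3 CPM. Without YFP-NEG replicate 2 the difference in mitochondrial share between YFP-POS and YFP-NEG was 0.0978 percentage points.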

How the results depend on the processing

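In YFP-POS against YFP-NEG the counts of called loci stayed within 1.5 times of 27 chloroplast and 23 mitochondrial loci under all scalings, filters and tools run, apart from the replicate block, which called 43 chloroplast loci. With single libraries left out they ran from 20 to 33 and from 18 to 22. The log2 fold change of ATMG00020 there was -0.0139 with library totals and ran from -0.106 to 0.295 with single libraries left out, and that of ATMG01390 from -0.401 to 0.170. In ALL-SORT against NO-SORT, 21 chloroplast loci were called with DESeq2 and 31 with both alike libraries left out, and 2 to 28 with single libraries left out. The mitochondrial count was 4 with own-genome scaling, 4 with DESeq2, 2 with all 15 libraries in the fit, 4 with both alike libraries left out, and 0 to 3 with single ones left out, and ATMG00020 had -0.0830 with own-genome scaling. Without adjustment, 6 mitochondrial loci had a p under 0.05 in edgeR there. In YFP-POS against NO-SORT the mitochondrial count was 4 with own-genome scaling, 9 with the replicate block and 11 to 19 with single libraries left out, and the chloroplast count 19 to 31. In YFP-NEG against NO-SORT the counts ran from 32 to 39 and from 11 to 16. Outside YFP-POS and YFP-NEG the numbers were not taken as pairs (r from -0.0993 to 0.1193). Only replicate 4 of YFP-NEG and NO-SORT, at 0.1193, passed the limit of 0.1. ALL-SORT replicate 2 and NO-SORT replicate 3, which differ in number, reached 0.2091. The block called 8 and 1 loci in ALL-SORT, 36 and 14 in YFP-NEG and 27 in YFP-POS (chloroplast) against NO-SORT.

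Differences in chloroplast share kept their sign in every setting run. Without ATMG00020 and ATMG01390 the mitochondrial differences turned to 0.0205 percentage points for YFP-POS against YFP-NEG, -0.00386 for ALL-SORT and -0.00711 for YFP-NEG against NO-SORT. For the share of all mitochondrial loci, YFP-POS against YFP-NEG was -0.00999 and ran from -0.113 to 0.111 with single libraries left out (-0.0367 within pairs). YFP-NEG against NO-SORT was 0.259 and ran from 0.151 to 0.313, at the smallest p that 3 against 4 allows. Leaving out rRNA and tRNA loci was not run, since they are not named, and lanes could not be treated as libraries. The causes of these changes were not tested. At under 1 CPM, differences are limited by depth.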
